A study of Mus musculus with 6 samples.

Results

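The chemokine ligands and receptors on the array are 57 genes of 37008 on it: 38 ligands and 19 receptors. They were chosen by name, as every non-control probe whose gene name is Ccl, Cxcl, Ccr or Cxcr followed by a digit, together with Xcl1, Xcr1, Cx3cl1, Cx3cr1, Pf4 and Ppbp. They have 78 probes, and the brightest probe of each gene was used. Chemokines are small secreted proteins that guide migrating leukocytes along gradients, and their receptors are G-protein-coupled receptors on the surface of the responding cell. Most inflammatory ligands share receptors, so a receptor can be reached through several ligands and a ligand through several receptors. In skin, keratinocytes, fibroblasts, endothelium and resident macrophages all make chemokines, and the promotion of skin tumours with phorbol ester is accompanied by leukocyte entry.

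RNA came from skin tumours of male mice, 3 labelled P2ry6+/+ and 3 labelled P2ry6-/-. P2ry6 encodes a receptor for uridine diphosphate, and the study compared tumours with and without its gene. Mice of both genotypes, 12 of each, had received the mutagen DMBA on the back (195 nmol in 200 uL of acetone) and then the tumour promoter TPA (16 nmol) 2 times a week until week 22, so every tumour compared here carries both treatments. The labels number the tumours without stating that each is from its own mouse, and give no age or strain. The p-values therefore measure the spread between these samples only, which may be technical.

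The level of P2ry6 (brighter probe) was 0.38, 0.33 and -0.21 in labelled wild-type tumours 1, 2 and 3 and 0.57, 0.70 and 0.45 in labelled knockout tumours 1, 2 and 3. These are log2 levels relative to the 75th percentile of the array, the scale of every level given here. The targeted gene was thus no lower under the knockout label. The difference was 0.41 (limma adjusted p = 0.450), and the part of the gene that was removed is not stated, so a probe outside it checks nothing. Every direction below follows the labels.

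The tissue label was checked against keratinocyte markers. All 12 of those listed (Krt5 and Krt14 among them) were well above background on all 6 arrays, with a mean level of 7.13 to 7.21 in the labelled wild-type tumours and 7.26 to 7.37 in the labelled knockout tumours. Between 54.2% and 59.4% of the spots of an array were well above background. With 6 arrays, precision is limited by their number. All 12 skeletal muscle markers were lower in the labelled knockout tumours (median log2 difference -4.32), as were 8 of 9 tested adipocyte markers (median -3.79) and 8 of 8 sebaceous gland markers (median -2.33). Labelled wild-type tumour 2 held the highest mean level of all 3 of these lists. The array's slide row nearly followed genotype: row 1 held only labelled wild-type and row 3 only labelled knockout tumours, and row 2 held labelled wild-type tumour 3 and labelled knockout tumour 1. With row as a block, tried after the data were seen, the genotype difference rests on those 2 tumours. With this block 0 features passed after adjustment and 11 chemokine genes had an unadjusted limma p under 0.05, where 10.4% of all features did. The log2 difference, labelled knockout minus labelled wild-type, was then 1.57 for Ccl11, 3.83 for Cxcl10, 5.37 for Cxcl9, -3.99 for Cxcl1, -0.38 for Cxcl12 and 0.14 for Pf4, against the values without the block given below. In bulk RNA, fewer cells of a type and less RNA per cell cannot be told apart either.

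The sequences below show the letters before the start of 5 ligand genes that hold matches and were chosen after values were seen. They are the interferon-induced Cxcl10, the skin ligand Cxcl14, and the neutrophil ligands Cxcl1, Cxcl2 and Cxcl3. The sequences are from RefSeq (GRCm38.p6), written 5′ to 3′ on the strand of the gene. Capitals mark matches to the interferon-stimulated response element (ISRE, searched as GAAA, any 2 bases, then GAAA) or to the NF-kB motif, each searched on both strands.
Cxcl10, chr5:92348982-92349131, minus strand: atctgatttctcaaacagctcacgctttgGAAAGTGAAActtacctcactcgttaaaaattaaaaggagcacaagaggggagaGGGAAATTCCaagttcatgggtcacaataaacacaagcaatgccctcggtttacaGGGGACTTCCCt
Cxcl14, chr13:56296693-56296752, minus strand: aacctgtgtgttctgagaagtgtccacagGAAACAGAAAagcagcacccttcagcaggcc
Cxcl1, chr5:90891145-90891204, plus strand: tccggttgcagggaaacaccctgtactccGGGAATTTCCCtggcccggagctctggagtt
Cxcl2, chr5:90903773-90903832, plus strand: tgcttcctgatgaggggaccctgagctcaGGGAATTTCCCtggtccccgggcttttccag
Cxcl3, chr5:90785999-90786058, plus strand: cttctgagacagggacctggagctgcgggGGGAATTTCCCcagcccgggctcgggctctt

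In Cxcl10 the ISRE letters lie 213 to 204 bases before the start, and NF-kB letters lie at 159 to 150 and, as overlapping matches, at 104 to 94. Cxcl14 holds the ISRE letters at 172 to 163 and no NF-kB letters in its promoter window of 300 bases (250 before the start to 50 after). Cxcl1, Cxcl2 and Cxcl3 each hold the run GGGAATTTCCC, which matches the NF-kB motif on both strands. A promoter entry was at hand for 42 of the 57 genes. The ISRE letters occurred in 3 of those 42 (Ccl19, Cxcl10 and Cxcl14) and in 3.443% of all 32851 promoters in the table, or 3.99% of its 27025 genes. The NF-kB letters occurred in 11 of the 42 (Ccl1, Ccl9, Ccl20, Ccl27a, Ccr1, Ccr3, Ccr6, Cxcl1, Cxcl2, Cxcl3 and Cxcl10) and in 8.459% of all promoters, or 9.55% of genes; a gene with several promoter entries counts once if any holds the letters. A match is a description of letters and not a binding site.

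Of the 57 genes, 40 passed the filter on dim probes, which asks for a signal well above background on all 3 arrays of at least 1 genotype. They were 29 ligands and 11 receptors, and 36 of the 40 were above background on all 6 arrays. The other 17 were not tested. Of these, 13 were above background on 0 arrays: the ligands Ccl22, Ccl26, Ccl28, Cxcl13, Cxcl15, Cxcl17 and Xcl1, and the receptors Ccr1, Ccr1l1, Ccr4, Ccr10, Cxcr5 and Xcr1. Another 4 were seen on some arrays: Ccl1 on 2 of each genotype, Ccl19 on 2 labelled wild-type and 1 labelled knockout, Ccr8 on 2 labelled wild-type and 0 labelled knockout, and Cxcr1 on 1 labelled knockout array. Several receptors named here are carried by T cells, B cells or a dendritic cell subset, and a probe that is not well above background gives only a bound on its level.

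None of the 40 tested genes passed the threshold of 0.05 after adjustment over all 19749 features tested (limma), which 32 features did (0.162%). At an unadjusted p under 0.05, 10 of the 40 were counted, 7 of them higher and 3 lower under the knockout label (2 and 4 without labelled wild-type tumour 3), against a background of 13.2% of all features in either direction, 7.85% higher and 5.36% lower. The log2 difference (labelled knockout minus labelled wild-type) was above 0 for 26 of the 40 and below 0 for 14, with a median of 0.29, where 52.1% of all features were above 0 with a median of 0.02. Among the 36 genes above background on all 6 arrays, 23 were above 0 and 13 below, with the same median of 0.29. With that filter, 9 of the 36 had an unadjusted limma p under 0.05, 6 higher and 3 lower. The share of all features was then 12.3%. A difference of at least 2-fold was found for 11 of the 40, against a background of 5.92%. All 11 were ligands. The genotypes did not overlap for 5 genes that were higher (background 12.1%) and 2 that were lower (background 7.36%). Cxcl9 and Cxcr3 passed the filter on dim probes only through the labelled knockout arrays, where they were higher. Cxcr3 is among the 7 genes and the 5 genes counted as higher, and Cxcl9 among the 11. Their place in these counts is no separate support. Ligands had a median difference of 0.18 (17 above 0 and 12 below) and receptors of 0.46 (9 above 0 and 2 below).

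2 tumours stood apart from the rest in these genes. Labelled knockout tumour 3 had the highest level of all 6 tumours for 14 of the 40 genes, and the other tumours for 3 to 6 genes each. Labelled wild-type tumour 3 had the lowest level for 19 genes, and the other tumours for 3 to 7. Without labelled wild-type tumour 3, 6 of 42 members then tested had an unadjusted limma p under 0.05, 2 higher and 4 lower, where 11.3% of all features did; 23 members were above 0 and 19 below, with a median of 0.12. Without labelled knockout tumour 3, 6 of 40 had such a p, 4 higher and 2 lower, where 8.66% of all features did, and the median was 0.16. Some marker lists moved with these tumours and others did not. The neutrophil list had its lowest mean level, -1.13, in labelled wild-type tumour 3 and its highest, 0.42, in labelled knockout tumour 3. The keratinocyte list had the same extremes, at 7.13 and 7.37. The monocyte and macrophage list was lowest in labelled wild-type tumour 3, at 0.43. It was highest in labelled wild-type tumour 1, at 1.20, with 1.17 in labelled knockout tumour 3. The T cell list was lowest in labelled wild-type tumour 3 (-1.75), but labelled knockout tumour 3 (-1.58) was lowest of its label. The NK and cytotoxic list was highest in labelled wild-type tumour 3 (-3.22). The part of these cell types in the results was not tested.

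**Figure D1:**
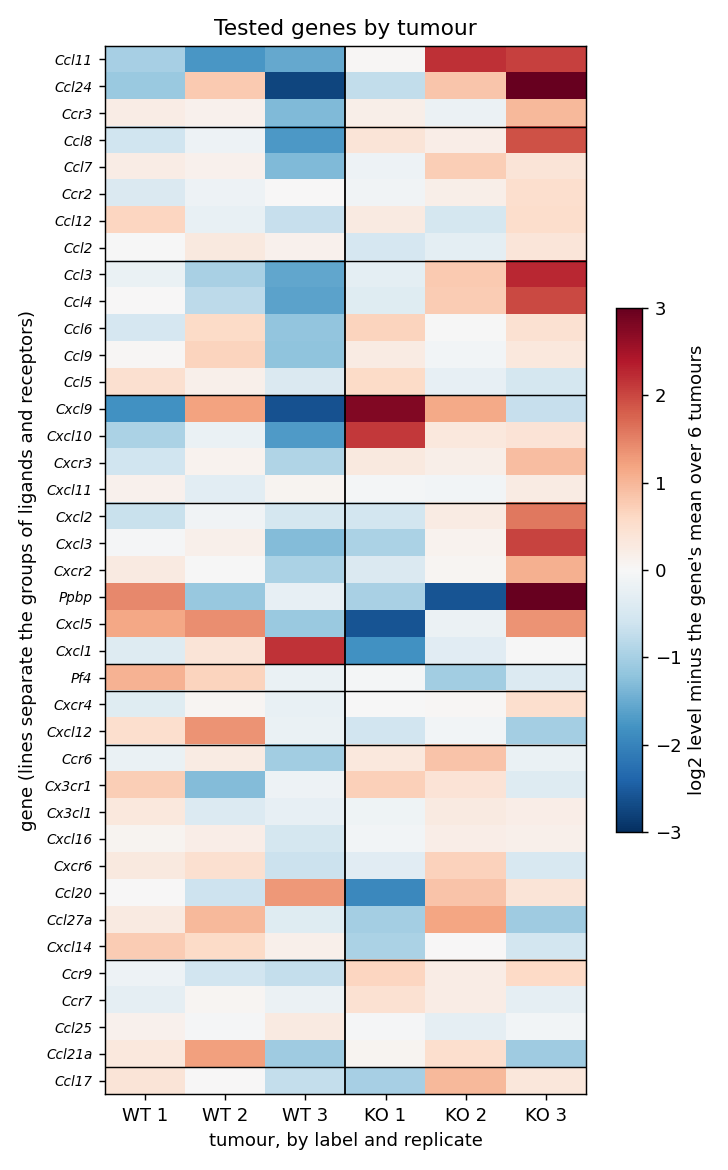
Each cell gives the log2 level of 1 of 39 tested genes in a tumour minus that gene's mean over the 6 tumours, with genes in the order of their role and the colour scale ending at -3 and 3. Blue cells gather in labelled wild-type tumour 3, which was lowest for 19 of 40 genes, and red cells in labelled knockout tumour 3, which was highest for 14.

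Eotaxins attract eosinophils through the receptor CCR3. The 3 tested genes of this group, the ligands Ccl11 and Ccl24 and the receptor Ccr3, had differences above 0, with a median of 2.05. Ccl11, which encodes eotaxin and is made by dermal fibroblasts and macrophages among others, had the smallest p of all the members. Its probe lies at chr11:81876369-81876428 (mm9). The level of Ccl11 was -0.09, -0.84 and -0.63 in labelled wild-type tumours 1, 2 and 3 and 0.94, 3.11 and 2.97 in labelled knockout tumours 1, 2 and 3. All 3 labelled knockout tumours lay above all 3 labelled wild-type tumours, and labelled knockout tumour 1 lay nearest to them. The difference for Ccl11 was 2.86 on the log2 scale (SE 0.58), or 7.26-fold, with a limma adjusted p of 0.181. Without labelled knockout tumour 1 it was 3.56, and this was the only setting run in which any member passed (limma adjusted p = 0.0367).

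Ccl24, which encodes eotaxin-2, a product of alternatively activated macrophages, had levels of -1.03, 0.86 and -2.67 in the labelled wild-type tumours and -0.66, 0.91 and 3.07 in the labelled knockout tumours. Labelled knockout tumour 3 was far above the rest, labelled wild-type tumour 3 far below, and the genotypes overlapped. The difference for Ccl24 was 2.05 (SE 1.16, limma adjusted p = 0.508), and it was 1.19 without labelled wild-type tumour 3 and 1.07 without labelled knockout tumour 3. For the receptor gene Ccr3, levels ran from -2.92 to -1.38 in labelled wild-type and from -1.77 to -0.62 in labelled knockout tumours. The groups overlapped, with a Ccr3 difference of 0.66 (SE 0.48, limma adjusted p = 0.613). The 6 eosinophil markers gave a mean level of -4.84 to -4.05 in the labelled wild-type and -4.52 to -3.33 in the labelled knockout tumours. Only 2 of these 6, Ear1 and Ear2, were above background on all arrays. These were the only 2 tested, and 1 was higher and 1 lower, with a median difference of -0.21. Siglecf, a surface lectin of eosinophils, was above background on 0 labelled wild-type and 2 labelled knockout arrays, Prg2 on 0 and 1, Il5ra on 0 and 2, and Epx, the eosinophil peroxidase gene, on none. The third eotaxin gene, Ccl26, was above background on 0 arrays.

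CCR2 ligands recruit monocytes from the blood. The group listed here holds the ligand genes Ccl2, Ccl7, Ccl8 and Ccl12 and the receptor gene Ccr2. Of the 5 genes tested, 4 had differences above 0, and the median, 0.38, was the value of Ccr2. Because Ccr2 and Ccl8 are included, this count and median are not those of CCR2 ligands alone. Ccl8, whose product attracts monocytes and, in mice, acts through CCR8, had levels of 3.85, 4.29 and 2.74 in labelled wild-type tumours 1, 2 and 3 and 4.83, 4.64 and 6.35 in labelled knockout tumours 1, 2 and 3. The genotypes did not overlap, with labelled wild-type tumour 3 lowest and labelled knockout tumour 3 highest. The difference for Ccl8 was 1.65 (SE 0.57), or 3.14-fold, with a limma adjusted p of 0.309. It was 1.21 without labelled wild-type tumour 3 and 1.11 without labelled knockout tumour 3, and in both cases its unadjusted p was above 0.05.

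The other genes of the monocyte group had smaller differences. Ccl7 encodes a monocyte chemoattractant and had a difference of 0.65 (SE 0.45). Ccl2, which encodes the main monocyte chemoattractant MCP-1, had a difference of -0.29 (SE 0.25), and its levels were 1.87, 2.17 and 2.00 in the labelled wild-type against 1.37, 1.57 and 2.22 in the labelled knockout tumours. Labelled knockout tumour 3 was the highest of the 6, although the mean of its genotype was the lower. Ccl12 differed by 0.18 (SE 0.42) and the receptor gene Ccr2 by 0.38 (SE 0.21).

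A further group of inflammatory CC ligands (Ccl3, Ccl4, Ccl5, Ccl6 and Ccl9) attracts monocytes, T cells and neutrophils, and 4 of these 5 had differences above 0. Ccl3, which encodes the macrophage inflammatory protein MIP-1 alpha, had levels of 0.94, 0.17 and -0.41 in labelled wild-type tumours 1, 2 and 3 and 0.86, 1.93 and 3.42 in labelled knockout tumours 1, 2 and 3. Labelled knockout tumour 1 lay within the labelled wild-type range, so the genotypes overlapped. The difference for Ccl3 was 1.84 (SE 0.66, limma adjusted p = 0.330), and it was 1.16 without labelled knockout tumour 3. Ccl4, the neighbouring gene for MIP-1 beta, had levels of 2.15, 1.35 and 0.54 in the labelled wild-type and 1.76, 2.89 and 4.10 in the labelled knockout tumours. Its order of the 6 tumours was that of Ccl3, with labelled knockout tumour 3 highest, labelled wild-type tumour 3 lowest and the same overlap. The difference for Ccl4 was 1.57 (SE 0.65, limma adjusted p = 0.376) and 0.98 without labelled knockout tumour 3, and its second probe gave 1.52.

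Ccl6 and Ccl9, which mouse myeloid cells make, differed by 0.74 (SE 0.45) and 0.33 (SE 0.45). Ccl5, which encodes RANTES, a product of T cells and epithelium, differed by -0.13 (SE 0.36). The receptor genes Ccr1 and Ccr1l1 were above background on 0 arrays. Neither Ccl5, Ccl6 nor Ccl9 passed, and each limma adjusted p was at least 0.535.

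**Figure D2:**
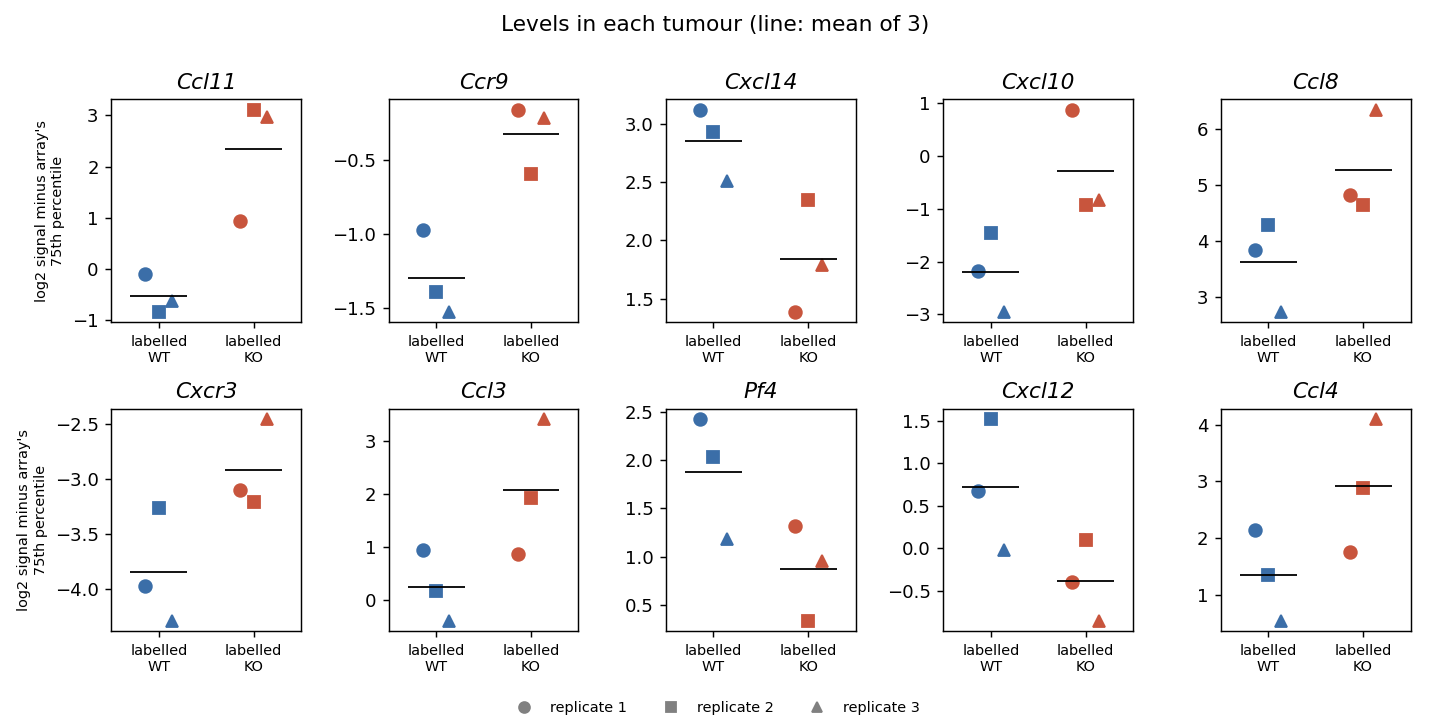
Points give the log2 level (signal relative to the array's 75th percentile) of each tumour for the 10 genes with an unadjusted limma p under 0.05, by genotype label; horizontal lines are means of 3 and the marker shape is the replicate number. Each panel has its own vertical range. Ccl11, Ccr9, Cxcl10, Ccl8 and Cxcr3 do not overlap and are higher in the labelled knockout tumours, Cxcl14 does not overlap and is lower, and Ccl3, Ccl4, Pf4 and Cxcl12 overlap. Cxcr3 passed the filter on dim probes only through the labelled knockout arrays, where it was higher, so its place here is no separate support.

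The interferon-induced ligands CXCL9, CXCL10 and CXCL11 attract activated T and NK cells through CXCR3. Cxcl9 and its receptor gene Cxcr3 passed the filter on dim probes only through the labelled knockout arrays, where they were higher, and the brightest probe of Cxcl11 is in doubt as described below. The direction of the group as a whole is therefore not read from its count. Cxcl10, whose promoter letters are printed above, had levels of -2.19, -1.45 and -2.95 in labelled wild-type tumours 1, 2 and 3 and 0.87, -0.93 and -0.83 in labelled knockout tumours 1, 2 and 3. The genotypes did not overlap, and labelled knockout tumour 1 was the highest, in contrast to Ccl11, Ccl3 and Ccl4, where it was the lowest of its genotype. The difference for Cxcl10 was 1.90 (SE 0.58), or 3.73-fold, with a limma adjusted p of 0.276.

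Cxcl9, which responds mainly to interferon gamma, was above background on 1 labelled wild-type and 3 labelled knockout arrays. Its levels were -4.62, -1.59 and -5.40 against -0.03, -1.65 and -3.50, with labelled knockout tumour 1 highest and labelled wild-type tumour 2 within the labelled knockout range. The difference for Cxcl9 was 2.15 (SE 1.20, limma adjusted p = 0.503). It was 1.01 with another background correction (normexp), 1.13 when slide column was blocked, 1.30 without labelled knockout tumour 1, 1.38 without labelled wild-type tumour 3 and 3.29 without labelled wild-type tumour 2. Cxcr3, their shared receptor gene, was also above background on 1 labelled wild-type and 3 labelled knockout arrays. Cxcr3 levels were -3.97, -3.26 and -4.29 in the labelled wild-type and -3.10, -3.21 and -2.45 in the labelled knockout tumours, near the lower end of what the arrays measured. The groups did not overlap, although labelled wild-type tumour 2 and labelled knockout tumour 2 nearly met. The difference for Cxcr3 was 0.93 (SE 0.33, limma adjusted p = 0.317), and with normexp it was 0.40.

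Beside this group, the T cell markers had a mean level of -1.75 to -1.42 in the labelled wild-type and -1.58 to -1.14 in the labelled knockout tumours, with 9 of 11 tested markers higher. The NK and cytotoxic markers lay between -3.78 and -3.22 and between -3.92 and -3.46, and 3 of those 10 were above background on all arrays. The part of these cells in the values of Cxcl9, Cxcl10 and Cxcr3 was not tested.

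The brightest ligand probe was that of Cxcl11, at 8.29 to 8.84 in all 6 tumours, with a difference of 0.07 (SE 0.19). A run of 20 bases of this probe occurs in the promoter windows of 21 other genes, which held for none of the other 56 probes used, so this signal cannot be taken as Cxcl11 alone. The second Cxcl11 probe shares no such run. It gave 2.78 to 2.87 in the labelled wild-type and 3.06 to 3.20 in the labelled knockout tumours, a difference of 0.32. The 2 ranges of this second probe did not overlap.

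CXC ligands with an ELR sequence attract neutrophils through CXCR2. The 6 genes tested include the receptor gene Cxcr2, and they were split, 3 above 0 and 3 below, with a median of 0.22. Among the ligand genes, Cxcl2 and Cxcl3 were above 0, and Cxcl1, Cxcl5 and Ppbp were below. Cxcl1, which keratinocytes make, had levels of 2.63, 3.42 and 5.19 in the labelled wild-type and 1.20, 2.68 and 3.02 in the labelled knockout tumours. It was highest in labelled wild-type tumour 3, the tumour that was lowest for 19 other members, and the genotypes overlapped. The difference for Cxcl1 was -1.44 (SE 0.74, limma adjusted p = 0.462); it was -0.72 without labelled wild-type tumour 3, -0.90 without labelled knockout tumour 1 and -0.78 with array weights.

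Cxcl2 and Cxcl3, neighbours of Cxcl1 with the same NF-kB letters before their starts, differed in the other direction. Cxcl2, which neutrophils and macrophages make, had levels of -1.50, -0.93 and -1.35 in the labelled wild-type and -1.40, -0.58 and 0.76 in the labelled knockout tumours. The labelled knockout values spread more widely, with tumour 3 highest. The difference for Cxcl2 was 0.86 (SE 0.52, limma adjusted p = 0.537), and 0.27 without labelled knockout tumour 3. Cxcl3 differed by 0.79 (SE 0.77, limma adjusted p = 0.712), and by -0.02 without labelled knockout tumour 3. None of these 3 genes passed, and whether Cxcl1 differed from its neighbours was not tested.

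Cxcl5, an epithelial ligand, ran from -2.05 to 0.47 in the labelled wild-type and from -3.52 to 0.41 in the labelled knockout tumours, a difference of -0.95 (SE 1.09). Ppbp, whose product comes from platelets, ran from -3.63 to 2.45 within the labelled knockout tumours and had a difference of -0.03 (SE 1.53). Cxcr2, the neutrophil receptor gene, had the brightest receptor probe, with levels of 0.77, 0.51 and -0.44 in the labelled wild-type and 0.08, 0.57 and 1.58 in the labelled knockout tumours. Tumour 3 was lowest in the labelled wild-type and highest in the labelled knockout group, and the groups overlapped. The difference for Cxcr2 was 0.46 (SE 0.46, limma adjusted p = 0.718), and it was 0.11 and 0.05 without tumour 3 of the labelled wild-type and of the labelled knockout group. Of 12 tested neutrophil markers 9 were higher in the labelled knockout tumours (median 0.40), with mean levels of -1.13 to -0.03 against -0.81 to 0.42, and 0 of them passed the adjusted threshold.

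Pf4 encodes platelet factor 4, which is stored in platelet granules and is also made by some tissue macrophages. Its levels were 2.43, 2.03 and 1.18 in labelled wild-type tumours 1, 2 and 3 and 1.32, 0.33 and 0.95 in labelled knockout tumours 1, 2 and 3. The groups overlapped, since labelled wild-type tumour 3 lay below labelled knockout tumour 1. The difference for Pf4 was -1.01 (SE 0.38, limma adjusted p = 0.344). The 9 platelet and megakaryocyte markers had mean levels of -4.04 to -3.43 in the labelled wild-type and -4.24 to -3.71 in the labelled knockout tumours, and 2 of the 9 were above background on all arrays.

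Cxcl12 is the homeostatic ligand of stromal cells that retains and positions cells carrying CXCR4. Its levels were 0.67, 1.52 and -0.02 in labelled wild-type tumours 1, 2 and 3 and -0.40, 0.10 and -0.85 in labelled knockout tumours 1, 2 and 3. Labelled wild-type tumour 2 was highest and the groups overlapped. The difference for Cxcl12 was -1.11 (SE 0.43, limma adjusted p = 0.350), and it was -0.71 without labelled wild-type tumour 2. A second Cxcl12 probe, above background on 3 labelled wild-type arrays and 1 labelled knockout array, gave -3.57, and the mean of both probes gave -2.34. Labelled wild-type tumour 2 also had the highest skeletal muscle, adipocyte and sebaceous levels, of 3.96, 1.17 and 4.45, and the part of these tissues in the Cxcl12 and Pf4 values was not tested. The fibroblast markers, as a list, had mean levels of 1.31 to 2.87 against 1.59 to 2.68. Single markers differed in both directions, with 7 of the 10 above 0 and 3 below. Among the 10, 1 marker was lower and passed the adjusted limma threshold, where 0.162% of all features passed. The receptor gene Cxcr4 differed by 0.35 (SE 0.21, limma adjusted p = 0.528).

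Ligands made by epithelium and their receptors were divided, with 4 of 8 genes above 0 and 4 below and a median of 0.04. Cxcl14, a ligand made constitutively in normal skin, had levels of 3.12, 2.93 and 2.50 in labelled wild-type tumours 1, 2 and 3 and 1.39, 2.35 and 1.79 in labelled knockout tumours 1, 2 and 3. All 3 labelled knockout values lay below all 3 labelled wild-type values. The difference for Cxcl14 was -1.01 (SE 0.29), a 2.01-fold lower signal, with a limma adjusted p of 0.261. Cxcl14 and Cxcl10, which both hold the ISRE letters, thus differed in opposite directions.

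Ccl27a, a keratinocyte ligand for skin-homing T cells, differed by -0.60 (SE 0.66), and its other probes gave -0.59 and -1.15; near-identical copies of this gene may share its signal. Ccl20, which epithelium makes to attract cells with CCR6, differed by -0.46 (SE 0.81), and Ccr6 by 0.66 (SE 0.40, limma adjusted p = 0.537). The membrane-bound ligands Cx3cl1 and Cxcl16 differed by 0.22 (SE 0.23) and 0.17 (SE 0.23), and their receptors Cx3cr1 and Cxcr6 by 0.48 (SE 0.54) and -0.09 (SE 0.42). None of these values passed, and the groups overlapped for the probe used of each gene; for the Ccl27a probe that gave -1.15 they did not.

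Among the genes of lymphoid homing, the receptor gene Ccr9 had the second smallest p of all members. CCR9 guides T cells to the thymus and small intestine in response to CCL25. Ccr9 levels were -0.97, -1.39 and -1.53 in labelled wild-type tumours 1, 2 and 3 and -0.16, -0.59 and -0.21 in labelled knockout tumours 1, 2 and 3. The groups did not overlap, and the spread was narrow in both. The difference for Ccr9 was 0.98 (SE 0.21), or 1.97-fold, with a limma adjusted p of 0.199; its other probe was above background on 0 arrays. Its ligand gene Ccl25 had levels of -0.32, -0.49 and -0.19 against -0.49, -0.73 and -0.55. The lowest labelled wild-type value and the highest labelled knockout value of Ccl25 were almost equal, without overlap. The difference for Ccl25 was -0.26 (SE 0.16, limma adjusted p = 0.538).

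Ccr7, the receptor of dendritic cells and naive T cells on their way to lymph nodes, differed by 0.26 (SE 0.23, limma adjusted p = 0.667), and its second probe, above background on 3 labelled wild-type arrays and 1 labelled knockout array, by -0.58. Its ligand gene Ccl21a, made by lymphatic endothelium, differed by -0.31 (SE 0.65) and has near-identical copies whose RNA the probe may share. The lymphatic endothelium markers had mean levels of -3.22 to -1.91 against -3.17 to -2.49. The CCR4 and CCR8 ligands, which attract regulatory and skin-homing T cells, were listed without Ccl8, which was counted in the monocyte group above. Of those listed, Ccl17 alone was tested, through the labelled wild-type arrays, and differed by 0.20 (SE 0.53). It was above background on 3 labelled wild-type and 2 labelled knockout arrays. For the XC pair, Xcl1 and Xcr1, 0 arrays were above background.

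**Figure D3:**
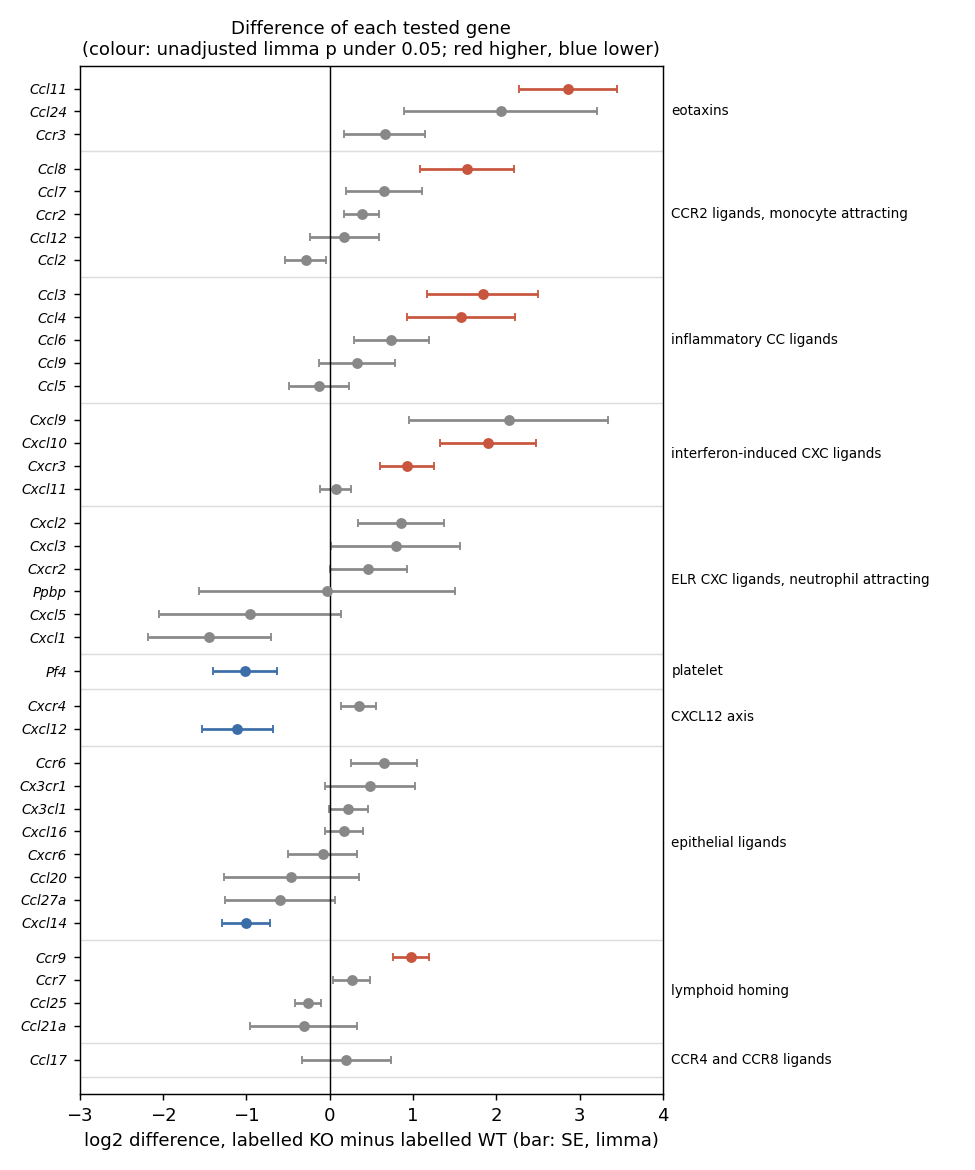
Points give the log2 difference (labelled knockout minus labelled wild-type) of each of 39 tested genes with its limma standard error as a bar, grouped by role, and coloured where the unadjusted p was under 0.05. The points of the eotaxin group lie above 0, the ELR and epithelial groups lie on both sides, and 0 genes passed after adjustment. In the interferon-induced group, Cxcl9 and Cxcr3 passed the filter on dim probes only through the labelled knockout arrays, and the Cxcl11 probe is in doubt. The direction of that group is therefore not read from its points (the bar of Cxcl11 crosses 0).

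Position on the chromosome was not used to choose the genes. On mm9, 6 CC ligand genes lie together on chromosome 11 (81850650 to 81990227), and within this cluster the differences ran from -0.29 for Ccl2 to 2.86 for Ccl11. The second CC cluster, at 83339296 to 83478111 on the same chromosome, ran from -0.13 for Ccl5 to 1.84 for Ccl3. On chromosome 5, the cluster of ELR ligands and Pf4 at 91190490 to 91334593 ran from -1.44 for Cxcl1 to 0.86 for Cxcl2. In the cluster of Cxcl9, Cxcl10 and Cxcl11 on chromosome 5, at 92752191 to 92788626, the differences ran from 0.07 for Cxcl11 to 2.15 for Cxcl9. The direction of this cluster is not read. Cxcl9 passed the filter on dim probes only through the labelled knockout arrays, and the Cxcl11 probe is in doubt. Neighbouring genes thus spanned both signs in 3 of these 4 clusters. Of the 9 tested genes with NF-kB letters in their promoter window, 6 had differences above 0 and 3 below.

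Genes that act with the chemokines are given next as lists, of which 0 genes passed the adjusted threshold in limma. Among inducers of chemokine transcription, 16 of 20 tested genes had differences above 0 (median 0.32), and 5 had an unadjusted p under 0.05, all higher, where 7.85% of all features did in that direction. Irf1 and Irf7, transcription factors of the interferon response, differed by 0.83 (SE 0.20) and 0.90 (SE 0.34), and Nfkb1, an NF-kB subunit gene, by 0.65 (SE 0.21); the limma adjusted p of each was at least 0.213.

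Il4, the cytokine gene that induces eotaxins in several cell types, had levels of -3.51, -2.16 and -3.93 in the labelled wild-type and -0.86, 0.24 and 1.54 in the labelled knockout tumours. It was above background on 2 labelled wild-type and 3 labelled knockout arrays. Il4 thus passed the filter on dim probes only through the labelled knockout arrays, where it was higher. The groups did not overlap, but this is no separate support, and Il4 is among the inducers counted above. The difference for Il4 was 3.51 (SE 0.69, limma adjusted p = 0.174). Ifng, Il13, Il17a, Il17f and Il22, which encode other cytokines that induce chemokines, were above background on 0 arrays.

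Among proteases that cut chemokines, 9 of 12 tested genes had differences above 0 (median 0.16). Dpp4, whose product trims the N terminus of several chemokines, differed by 1.19 (SE 0.32, limma adjusted p = 0.242). Of the signalling genes downstream of the receptors, 20 of 26 had differences above 0 (median 0.16), and 2 had an unadjusted p under 0.05, both higher, a share close to that of all features. Dock2, which drives Rac-dependent migration of leukocytes, differed by 0.54 (SE 0.18, limma adjusted p = 0.294). Atypical receptors, which bind chemokines without G-protein signalling, showed 3 of 7 above 0 with a median of -0.24, and Ackr3, which binds CXCL12, differed by 0.56 (SE 0.34).

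**Figure D4:**
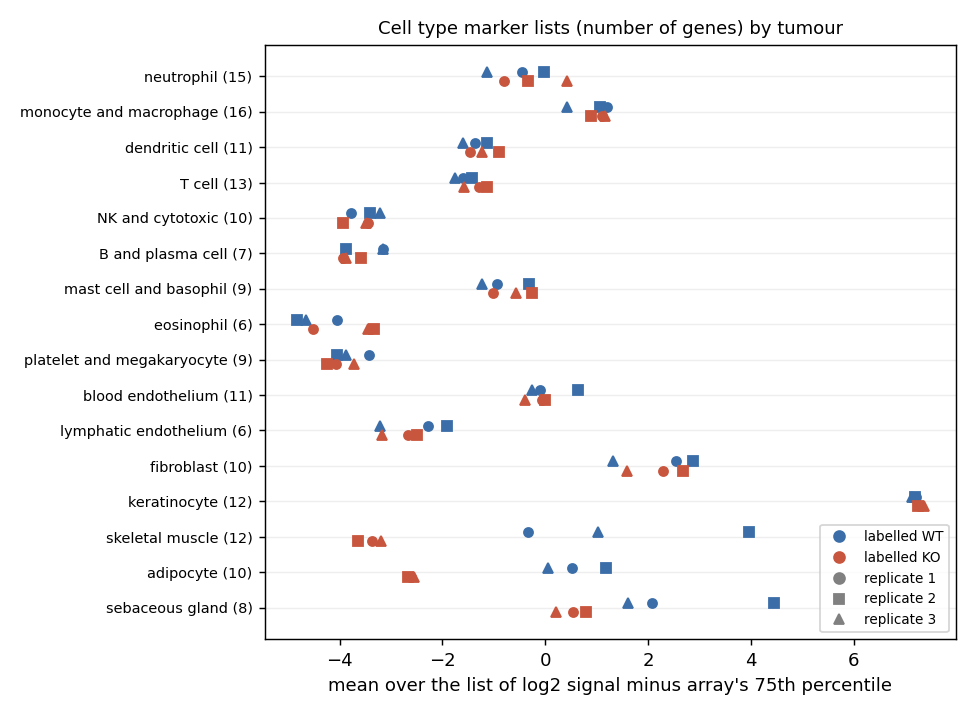
Each point is the mean log2 level of a cell type's marker list in a tumour (number of genes in brackets), by genotype label and replicate number. The skeletal muscle, adipocyte and sebaceous lists are higher in all 3 labelled wild-type tumours, while the neutrophil, T cell and macrophage lists overlap between the labels.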

How the data were processed

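The deposited spot signals are linear intensity values that the authors' scanner program had background-subtracted, per the file headers; per the submitters' processing notes this was Agilent Feature Extraction, version 10.7.1.1. A series table of log2 values was also deposited. Coordinates of probes are on mm9, per the file headers, and no annotation of exons on that build was used.

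Outlier-flagged spots were left out, spots of a probe averaged, and log2 taken after division by the array's 75th percentile. Names came from the RefSeq table (GRCm38.p6). The brightest of a gene's probes was tested with limma 3.58.1 (lmFit, eBayes; R 4.3.3, data.table version 1.17.8), two-sided, adjusted over 19749 features (Benjamini-Hochberg). With 3 against 3, an exact permutation test cannot go below p = 0.1.

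The members and lists were chosen with earlier results of these data known. The rule gives values for the 25 genes with the smallest p, the brightest ligand and receptor, and their partners; every tumour's value where unadjusted p was under 0.05. The probe-run check, promoter windows, clusters and named genes of the other lists were chosen after values were seen. Results of 3 genes are not reported or drawn here, though counts over lists include them. The fit was tested on simulated data. Alternatives were normexp (offset 50), quantile and median scaling, both filters, probe means, trend, array weights, the value table, replicate and slide column as blocks, slide row as a block (chosen after the data were seen), and leaving out each tumour.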

Additional observations from a re-analysis of the deposited data

How the results depend on the processing

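Of 19749 features, 32 passed the adjusted threshold. The count was 10 with normexp, 18 without the dim-probe filter, 5 when all 6 arrays had to be above background, 89 under array weights, 21 with the slide column as a block, 0 with the slide row (an alternative chosen after the data were seen), and 13 to 126 with a tumour left out. With the replicate block it was 5, and 8 members had an unadjusted p under 0.05, 4 higher and 4 lower. Deviations of same-numbered tumours from their group means correlated at r of 0.06, 0.26 and 0.14. The labels do not say what the number stands for. Whether same-numbered tumours share more than the number was not tested. Members past the adjusted threshold stayed at 0 except without labelled knockout tumour 1 (range 0 to 1), and those with an unadjusted p under 0.05 (10) numbered 6 to 11 with a tumour left out. Of 18 alternatives, the unadjusted p stayed under 0.05 in all 18 for Ccl11, Ccr9 and Cxcl14, 17 for Cxcl10, 14 for Ccl8, 13 for Cxcl12, 12 for Ccl3 and Pf4, 10 for Ccl4, and 11 of 17 for Cxcr3. Among the 25 members with the smallest p, directions turned for 5: Ccr7 (-0.16 as the mean over probes), Cxcl3 (-0.023 to 1.46 with a tumour left out, below 0 without labelled knockout tumour 3) and, with the slide row as a block, Pf4 (0.14), Ccr2 (-0.11) and Cxcl2 (-0.045). Among the other 15 tested members, 13 turned in at least 1 alternative; the cause was not tested. With no filter, the median of all features was 0.19, and dim probes have values close to background.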
